A study of Mus musculus with 32 samples.

Results

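The genes examined here carry out ubiquitin conjugation and deubiquitination. They were the probe sets whose only gene symbol on the platform belongs to the activating enzymes (Uba), conjugating enzymes (Ube), cullins (Cul), F-box proteins (Fbx), RING finger proteins numbered Rnf, TRIM proteins, ubiquitin-specific proteases (Usp, without Usp18) or ubiquitin C-terminal hydrolases (Uch). This rule gave 120 genes out of 8251 named on the array, measured by 163 of its 12488 probe sets. Of these, 121 probe sets for 97 genes passed a filter on dim probe sets, a mean over the arrays above that of an intensity of 94.2, and were tested. The other 42 had mean intensities between 2.4 and 91.8, and 23 genes were represented by such probe sets alone.

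Liver RNA of 32 male B6C3F1 mice, a hybrid strain, was hybridised to Affymetrix MG-U74Av2 arrays, 1 array a mouse and 4 mice in each of 8 groups. LTCR mice were restricted to 52.2 kcal per week from 5 months of age. CR8 mice were restricted from 20 months, at 77 kcal per week for 2 weeks and at 52.2 kcal per week for the following 6 weeks. Both restricted groups ate a diet enriched in protein, vitamins and minerals. For 8 weeks from 20 months, 5 groups ate the control diet with a compound added: MET (metformin, a biguanide), GLIP (glipizide, a sulfonylurea), GM (glipizide plus metformin), ROS (rosiglitazone, an activator of PPAR gamma) and SOY (soy isoflavone extract). CON mice ate 93 kcal per week of the control diet throughout. Every mouse was housed alone from 5 months, fasted for 48 hours and killed at 22 months, so all comparisons are between fasted, old livers. The drugs were mixed into food, and their doses are not in the labels used here.

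Ubiquitin is a small protein that cells attach to other proteins, most often to send them to the proteasome. An activating enzyme (E1) charges ubiquitin, a conjugating enzyme (E2) carries it, and a ligase (E3) picks the protein to be tagged. Many ligases have a RING domain, and the cullin ligases are assembled from a cullin, a RING subunit, an adaptor and a substrate receptor such as an F-box protein. Deubiquitinases take the tag off again. ISG15, a ubiquitin-like protein induced by interferon, has an E1 and an E2 of its own, encoded by Uba7 and Ube2l6. In liver, this machinery shares with autophagy the protein breakdown that accompanies fasting.

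Promoter sequences are shown for 3 members that were lower in LTCR, to set a gene known to respond to interferon and carrying the interferon motif, such a gene without that motif, and a conjugating enzyme outside that group side by side. They are RefSeq sequences of GRCm38.p6, 5' to 3' on the strand of the gene, from 250 bases before to 50 bases after the annotated start. RefSeq gave 121 promoters for 91 of the 120 member genes. Capitals mark matches on either strand to 3 motifs: GAAANNGAAA, the core of the interferon-stimulated response element; TGACGTCA, the cAMP response element; and CACGTG, the E-box. Matches that overlap were merged in capitals.
Trim21 (chr7:102565433-102565732, minus strand): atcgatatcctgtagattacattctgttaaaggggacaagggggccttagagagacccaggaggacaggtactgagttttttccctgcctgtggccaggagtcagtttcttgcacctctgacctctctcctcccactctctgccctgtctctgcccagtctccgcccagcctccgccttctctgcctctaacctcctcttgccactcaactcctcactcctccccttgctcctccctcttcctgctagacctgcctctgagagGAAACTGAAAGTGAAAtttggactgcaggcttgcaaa
Ube2l6 (chr2:84798578-84798877, plus strand): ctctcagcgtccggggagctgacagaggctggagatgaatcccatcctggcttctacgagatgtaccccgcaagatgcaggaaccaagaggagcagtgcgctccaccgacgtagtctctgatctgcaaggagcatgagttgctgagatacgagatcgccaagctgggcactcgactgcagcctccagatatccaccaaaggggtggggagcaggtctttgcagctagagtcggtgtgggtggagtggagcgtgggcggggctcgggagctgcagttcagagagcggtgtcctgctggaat
Ube2b (chr11:52000737-52001036, minus strand, 1 of its annotated starts): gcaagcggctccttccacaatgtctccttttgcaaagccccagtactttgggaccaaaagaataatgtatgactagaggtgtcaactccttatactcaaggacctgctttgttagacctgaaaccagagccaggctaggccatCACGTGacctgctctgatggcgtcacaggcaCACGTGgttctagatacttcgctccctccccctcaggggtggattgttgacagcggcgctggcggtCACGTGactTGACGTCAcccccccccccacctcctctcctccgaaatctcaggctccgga
The Trim21 window held 2 overlapping matches to the interferon motif, which begin at positions 14 and 20 of the transcript. The Ube2l6 window held no match to any of the 3 motifs. In the Ube2b window, E-boxes began at positions -107, -76 and -10 relative to the start, and the cAMP response element at -1. The window at the other Ube2b start in RefSeq (chr11:52000442-52000741, minus strand) held no match to any of the 3. Among all 32851 mouse promoters of this length, 3.44% held the interferon motif, 1.79% the cAMP response element and 7.15% the E-box. The member promoters held them in 6.61%, 3.31% and 7.44% of cases. The 8 member promoters with the interferon motif were those of Cul1, Fbxl15, Rnf20, Trim21, Trim30a and Usp17lc. Of these genes, Cul1 and Rnf20 were tested and not called in LTCR against CON. A match is a run of letters and was not tied to binding of any factor.

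All 11 hepatocyte markers on the array passed the filter, and their summed intensity lay between 160591 and 179470 in LTCR livers, against 136922 and 149297 in CON livers. The sums of MET (153661 to 160756) and SOY (158013 to 162158) also lay above those of CON. By marker, 5 of the 11 were called higher and 3 lower in LTCR, and 1 higher and 2 lower in MET. Over all tested probe sets, arrays correlated between 0.928 and 0.977, with a median of 0.968 within groups. In 5 arrays, 13 markers of skeletal muscle averaged more than 1 log2 unit above the median array: CR8 1, CR8 2, ROS 4, SOY 3 and CON 3. Counts of member calls without these arrays are given with each comparison in which they differ. Levels are whole-tissue RNA, so fewer cells of a type and less RNA per cell cannot be told apart. Intensities of different probe sets were not set against each other as amounts of RNA. Values are the authors' scaled intensities, and log2 changes are of the intensity plus 27, on which limma was run. A probe set is said to be called, to rise or to fall where its p, adjusted by Benjamini-Hochberg over all tested probe sets, was under 0.05. Arrays named as left out were left out 1 at a time.

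In LTCR livers, 26 member probe sets of 25 genes differed from CON, 6 higher and 20 lower. That is 21.5% of the 121 tested, beside 19.3% of all 7357 tested probe sets (7.53% higher and 11.8% lower), so the members as a whole were called about as often as any other probe sets. The median log2 change of the members was -0.05, beside 0.00 over all probe sets. The arrays of the 2 groups did not overlap for 30 members, 24.8%, beside 21.2% of all probe sets. Without the arrays high in muscle markers there were 22 member calls, beside 15.1% of all probe sets. The conjugating enzymes held 9 of the 20 lower calls and 1 of the 6 higher ones, out of 24 tested probe sets with a median log2 change of -0.26. Of the 30 USP probe sets, 2 were higher and 5 lower, of the 31 RING finger probe sets 1 was higher and 5 were lower, and of the 11 TRIM probe sets 2 were higher and 1 was lower. No F-box (16 tested), cullin (4), E1 (2), HECT or U-box (2) or UCH (1) probe set passed the threshold in limma. The E1 probe sets tested were those of Uba3 and Uba7, which serve ubiquitin-like proteins. Those of Uba1y were below the filter, so no E1 of ubiquitin itself was tested. At an unadjusted p under 0.05 there were 3 F-box probe sets, both E1 probe sets, and 0 of the cullins, the HECT and U-box ligases or the UCH probe set, beside 2351 of all 7357 probe sets. Classes were described by these counts and no test of a class was made.

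**Figure D1:**
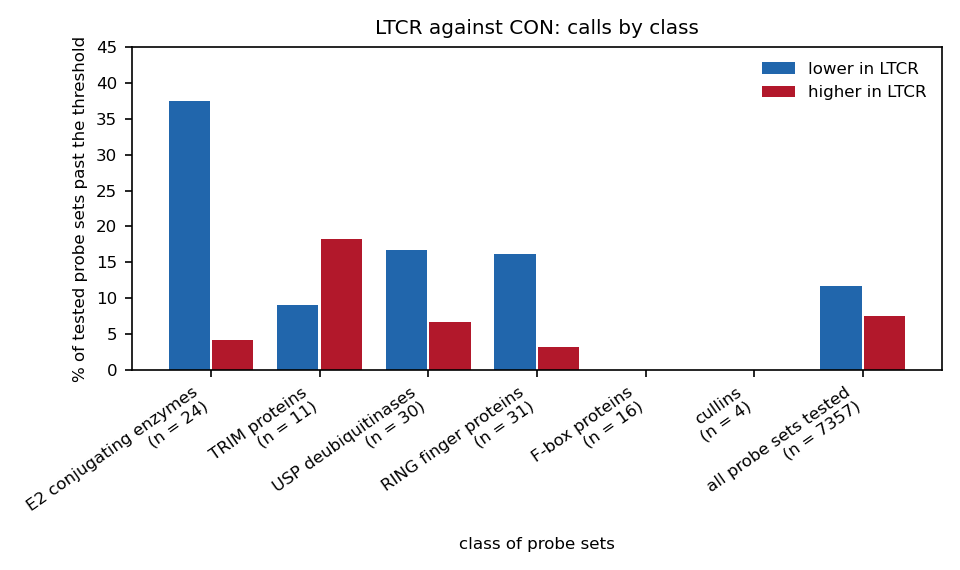
Percentage of tested probe sets past the adjusted p threshold in LTCR against CON (y axis), by class (x axis, with the number tested), lower in blue and higher in red. Among conjugating enzymes, 37.5% were lower and 4.2% higher, beside 11.8% and 7.53% of all tested probe sets; F-box proteins and cullins had none.

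Among the conjugating enzymes the lowest value relative to CON was that of Ube2d2a, of the broadly acting UBC4/5 family that serves many RING ligases. Its intensities were 155, 184, 214 and 257 in the 4 LTCR livers, against 614, 539.5, 429 and 522 in the 4 CON livers. Every LTCR array lay below every CON array (log2 change -1.28 ± 0.20, adjusted p = 4.58e-05; errors of log2 changes are standard errors). Ube2d3 belongs to the same family and was measured by a pair of probe sets. One gave 424, 518, 573 and 529 in LTCR livers, against 848, 890.5, 904 and 918 in CON livers (log2 change -0.78 ± 0.13, adjusted p = 0.000136). The other averaged 699 ± 106 in LTCR and 1137 ± 126 in CON (SD, n = 4 each; log2 change -0.69 ± 0.13, adjusted p = 0.000359). Both Ube2d3 probe sets fell with no overlap between the groups. Ube2d3 was the 1 gene of 23 with several tested probe sets in which all of them passed; the second carries the suffix that marks probes shared with similar transcripts.

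Ube2a and Ube2b encode the mammalian counterparts of yeast Rad6, which act in DNA damage tolerance and in ubiquitination of histone H2B. Ube2b had 716, 567, 606 and 599 in LTCR livers, against 829, 860.0, 933 and 928 in CON livers, without overlap (log2 change -0.50 ± 0.09, adjusted p = 0.000253). Ube2a averaged 114 ± 17 in LTCR and 177 ± 30.0 in CON (SD, n = 4 each; log2 change -0.53 ± 0.15, adjusted p = 0.0122). Both were lower, at -0.50 ± 0.09 and -0.53 ± 0.15 on the log2 scale, and the Ube2a call was lost without CON 4 (adjusted p = 0.0596) and in a fit to the 2 groups alone (adjusted p = 0.0638). Ube2e1, a relative of the UBC4/5 family, averaged 206 ± 32.4 in LTCR and 309 ± 46.7 in CON (log2 change -0.53 ± 0.15, adjusted p = 0.0112), a call lost without LTCR 1 (adjusted p = 0.0553) or without the arrays high in muscle markers (adjusted p = 0.0557). Its probe set also carries the suffix for probes shared with similar transcripts.

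Ube2k, which builds ubiquitin chains of the type that targets proteins to the proteasome, gave 179, 347, 467 and 267 in LTCR livers, against 696, 612, 467 and 455 in CON livers (log2 change -0.82 ± 0.21, adjusted p = 0.00621). The groups overlapped in 1 LTCR array, and its second probe set did not pass (log2 change -0.25 ± 0.11, adjusted p = 0.104). Ube2g1, whose human counterpart works with cullin ligases, averaged 1561 ± 281 in LTCR and 1940.0 ± 98.7 in CON (log2 change -0.32 ± 0.11, adjusted p = 0.0436). The arrays overlapped, and that call was lost without CON 1, CON 2, CON 3, LTCR 2 or LTCR 4 (adjusted p up to 0.187) and in 6 other settings (adjusted p up to 0.101). Ube2h, a partner of the CTLH ligase complex in human cells, was the 1 conjugating enzyme called higher than CON, with 1002, 811, 915 and 871 in LTCR livers, against 723, 627, 645 and 606 in CON livers (log2 change 0.45 ± 0.15, adjusted p = 0.0312). Its groups did not overlap, but the call was lost without CON 2, CON 3, CON 4, LTCR 1, LTCR 3 or LTCR 4 (adjusted p up to 0.097), and the second Ube2h probe set gave a log2 change of 0.19 ± 0.13 (adjusted p = 0.342). Ube2r2, an E2 of the cullin ligases and among the 5 brightest members, did not pass (log2 change -0.10 ± 0.08, 95% interval -0.26 to 0.07).

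**Figure D2:**
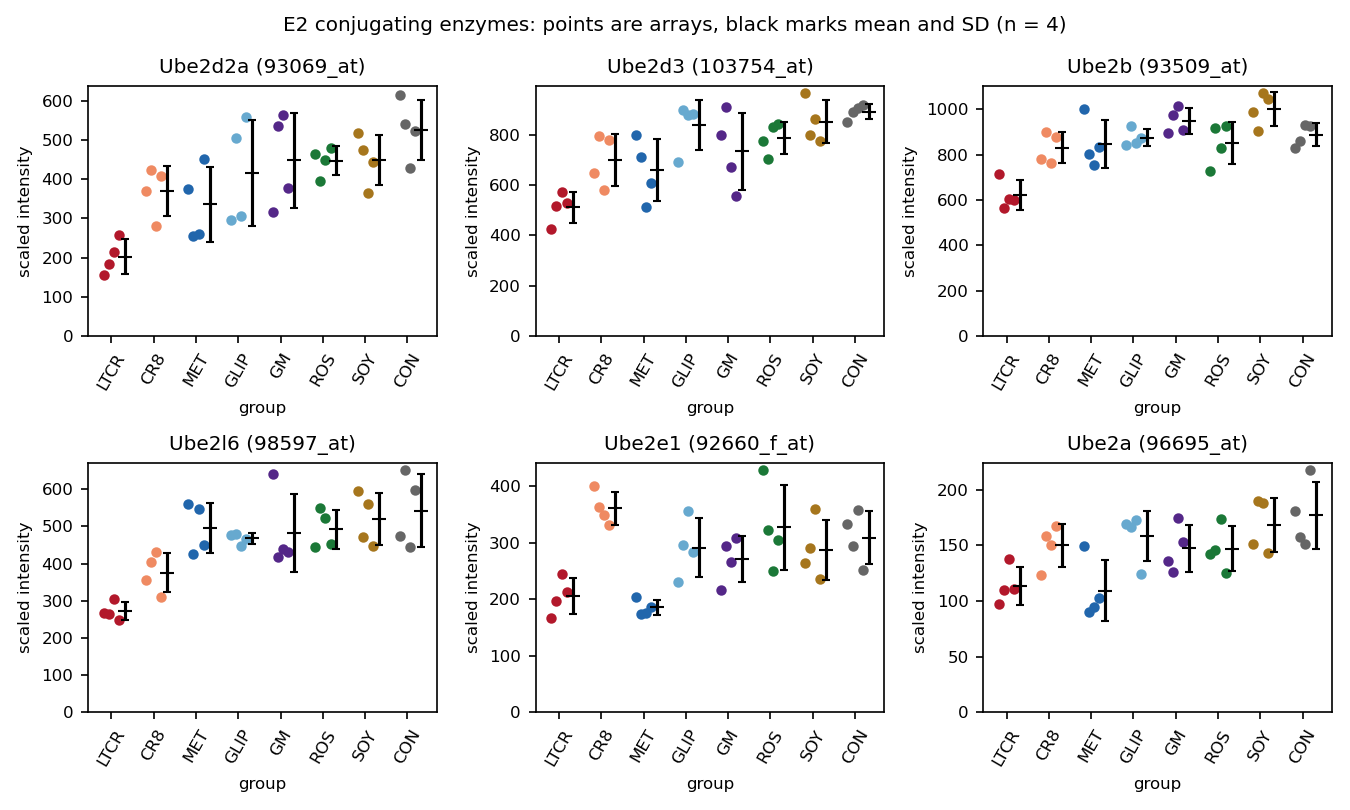
Scaled intensity (y axis) of 6 E2 probe sets in the 8 groups (x axis); each point is an array, and black marks give mean and SD over 4 arrays. LTCR arrays lie below all CON arrays in each panel, most narrowly for Ube2e1 (245 at most in LTCR and 251.0 at least in CON), and MET arrays are low for Ube2e1 and Ube2a.

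The enzymes of ISG15 conjugation were examined together with members known to be induced by interferon. Ube2l6, the E2 for ISG15, had 267, 265, 306 and 248 in LTCR livers, against 475, 652, 445 and 599 in CON livers. The groups did not overlap, and this was the smallest adjusted p among the members (log2 change -0.92 ± 0.13, adjusted p = 1.59e-05). Uba7, the E1 for ISG15, averaged 282 ± 47.7 in LTCR and 401 ± 74.6 in CON and did not pass (log2 change -0.47 ± 0.18, adjusted p = 0.0693). Trim21, a cytosolic antibody receptor and ligase, gave 218, 165, 174 and 87.8 in LTCR livers, against 278, 316, 296 and 390.1 in CON livers (log2 change -0.93 ± 0.18, adjusted p = 0.000531). Those groups did not overlap either. The second Trim21 probe set did not pass (log2 change -0.30 ± 0.13, adjusted p = 0.107), nor did Trim25, a ligase of the RIG-I pathway (log2 change 0.11 ± 0.14, adjusted p = 0.653). Isg15 itself, which is no member, averaged 104 ± 55.4 in LTCR and 850 ± 172 in CON (log2 change -2.81 ± 0.20, adjusted p = 1.12e-10). Of 16 measured genes on a list of interferon-induced genes, 15 were lower in LTCR (median log2 change -1.69), 8 in CR8 (-0.98), 9 in MET (-0.86) and 0 in GLIP, GM, ROS or SOY, where limma gave 6, 5, 8 and 2 at an unadjusted p under 0.05. Of all probe sets, 19.3% were called in either direction in LTCR, 0.544% in CR8 and 4.17% in MET. At the unadjusted p, the shares of all probe sets in GLIP, GM, ROS and SOY were 9.4%, 17.7%, 8.4% and 8.2%. Summed Kupffer cell and macrophage markers, 12 on the array and 9 tested, lay between 2685 and 4148 in LTCR, 2751 and 4379 in CR8 and 4969 and 7336 in MET livers, against 4497 and 5590 in CON livers. One of these markers was below the added constant on every array and 1 of the 9 was called lower in LTCR. Their part in the result was not tested.

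RING finger proteins lower in LTCR included Rnf11, an adaptor of ubiquitin ligases and of the A20 complex that restrains NF-kappaB. It had 1199.6, 1357, 1265 and 1104 in LTCR livers, against 1908, 1482, 2020.3 and 1804 in CON livers, without overlap (log2 change -0.54 ± 0.11, adjusted p = 0.00089). The Rnf11 probe set carries the suffix that marks probes shared with similar transcripts. Rnf181 averaged 1404 ± 119 in LTCR and 1835 ± 178 in CON (log2 change -0.38 ± 0.09, adjusted p = 0.00484). Rnf4, a ligase that recognises proteins carrying SUMO chains, averaged 1679 ± 92.8 in LTCR and 2072 ± 159 in CON (log2 change -0.30 ± 0.07, adjusted p = 0.00276). These 3 fell with no overlap of arrays, and each call was kept with any single array left out. Rnf7, the RING subunit of cullin 5 ligases, gave a log2 change of -0.52 ± 0.18 (adjusted p = 0.0368), with overlapping arrays. The Rnf7 call was lost without CON 3, CON 4, LTCR 1, LTCR 2 or LTCR 4 (adjusted p up to 0.122) and in 3 other settings (adjusted p up to 0.0957). Rnf138, a ligase of DNA repair, gave a log2 change of -0.49 ± 0.15 (adjusted p = 0.0199), a call lost without CON 3, LTCR 1 or LTCR 3 (adjusted p up to 0.0679), and its other probe set lay on the opposite side of 0 (log2 change 0.12 ± 0.21, adjusted p = 0.739).

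Rnf10 was the brightest member, with a mean of 6049 over all arrays, and the 1 RING finger probe set called higher in LTCR. It gave 7665, 7838, 6327 and 7283 in LTCR livers, against 4821, 5519.9, 5335 and 5226 in CON livers, and the groups did not overlap (log2 change 0.47 ± 0.10, adjusted p = 0.000704). Rnf141 and Rnf167, also among the 5 brightest, did not pass at 0.02 ± 0.16 and 0.06 ± 0.09 on the log2 scale. Trim28 encodes KAP1, the corepressor that KRAB zinc finger proteins recruit to silence chromatin. Its intensities were 3249.8, 2988, 2749 and 3114 in LTCR livers, against 2027, 2172, 2376 and 2309 in CON livers, with no overlap (log2 change 0.44 ± 0.08, adjusted p = 0.000345). Trim27 averaged 1336 ± 201 in LTCR and 1081 ± 34.2 in CON (log2 change 0.29 ± 0.10, adjusted p = 0.0392), with LTCR 1 highest at 1632. That call was lost without CON 1, CON 2, CON 3, CON 4, LTCR 1 or LTCR 2 (adjusted p up to 0.197) and in 3 other settings (adjusted p up to 0.098).

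None of the 4 tested cullins, the scaffolds of the largest ligase family, passed in LTCR against CON. Cul1 gave a log2 change of 0.01 ± 0.08 (95% interval -0.14 to 0.17), Cul2 -0.18 ± 0.10, Cul3 0.12 ± 0.08 and Cul4a -0.05 ± 0.11. Cul2 did differ among the 8 groups (moderated F test, adjusted p = 0.015), highest in SOY and lowest in LTCR. Among F-box proteins the smallest p was that of Fbxo8 (log2 change -0.46 ± 0.19, adjusted p = 0.0917). Fbxw11, which encodes the substrate receptor beta-TrCP2, had its 2 probe sets on opposite sides of 0, at 0.29 ± 0.13 and -0.19 ± 0.10. Uba3, the catalytic subunit of the NEDD8 E1 that activates cullins, gave a log2 change of -0.28 ± 0.12 (adjusted p = 0.0951).

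Deubiquitinases moved in both directions. Usp33 had 134, 199, 222 and 193 in LTCR livers, against 308, 300.3, 284 and 306 in CON livers (log2 change -0.63 ± 0.13, adjusted p = 0.000661). Usp48 gave 161, 175, 127 and 148 in LTCR livers, against 258, 197, 280.3 and 248 in CON livers (log2 change -0.60 ± 0.14, adjusted p = 0.00351). Both fell without overlap. Usp14 is bound to the proteasome and trims ubiquitin from its substrates, and Usp1 acts on PCNA and FANCD2 in DNA repair. Usp14 averaged 258 ± 42.5 in LTCR and 348 ± 22.1 in CON (log2 change -0.41 ± 0.14, adjusted p = 0.0348), a call lost without CON 2, CON 3, CON 4, LTCR 1 or LTCR 4 (adjusted p up to 0.159) and in 4 other settings (adjusted p up to 0.0975). Usp1 gave a log2 change of -0.43 ± 0.15 (adjusted p = 0.0431), a call lost without CON 1, CON 3, CON 4, LTCR 1, LTCR 2 or LTCR 4 (adjusted p up to 0.141) and in 6 other settings (adjusted p up to 0.112). Usp9x, a large protease with many substrates, averaged 1082 ± 61.7 in LTCR and 1308 ± 84.4 in CON (log2 change -0.27 ± 0.07, adjusted p = 0.0109), beside a log2 change of -0.22 ± 0.18 (adjusted p = 0.428) for its second probe set. The Usp9x call was lost in a fit to the 2 groups alone (adjusted p = 0.0618). Ube2g1, Rnf138 and Usp9x, which complete the list of 26, and Fbxo8, Uba3 and Rnf2 were chosen for naming after their values were seen.

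Usp15 and Usp3 were the deubiquitinases called higher in LTCR. Usp15, which acts on receptor-regulated SMADs, had 466, 446, 571 and 546 in LTCR livers, against 352, 394, 361 and 338 in CON livers, without overlap (log2 change 0.46 ± 0.09, adjusted p = 0.000387). Its second probe set lay near 0 (log2 change -0.06 ± 0.19, adjusted p = 0.872). Usp3, a deubiquitinase of histone H2A, gave 1009.6, 589.9, 656 and 745 in LTCR livers, against 558, 450.1, 462 and 502 in CON livers (log2 change 0.56 ± 0.13, adjusted p = 0.00202). LTCR 1 was the highest array, and the call was kept with any single array left out. The other Usp3 probe sets did not pass, at 0.10 ± 0.10 and 0.23 ± 0.13. Over the 23 genes with several tested probe sets, 11 had all of them on the same side of 0 and 12 did not. Of the 8 such genes with at least 1 call, Rnf138 and Usp15 had probe sets of opposite sign.

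**Figure D3:**
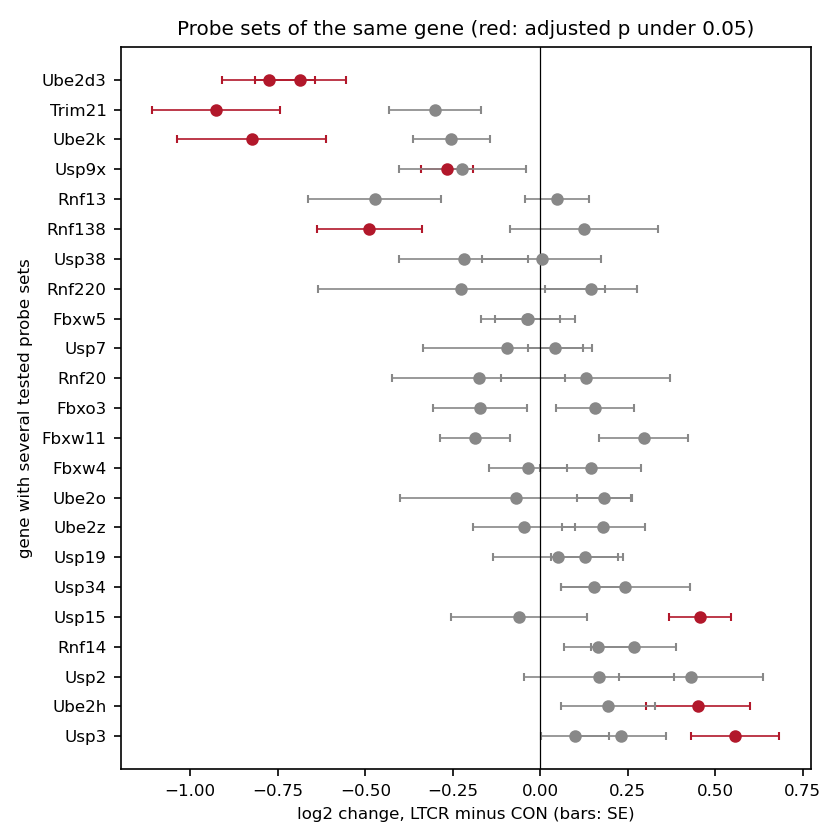
Log2 change in LTCR against CON (x axis, bars are SE) for the tested probe sets of the 23 member genes with more than 1 (y axis); red marks an adjusted p under 0.05. Ube2d3 has both its probe sets in red, at -0.78 and -0.69, whereas Usp15 has one at 0.46 and another at -0.06.

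Restriction for 8 weeks gave 1 member call in CR8, beside 0.544% of all probe sets, and 10 (8.3%) at an unadjusted p under 0.05, beside 11.6% of all probe sets. Trim28 had 2597, 2709, 3427 and 3040.3 in CR8 livers, against 2027, 2172, 2376 and 2309 in CON livers, and rose without overlap (log2 change 0.40 ± 0.08, adjusted p = 0.0173). The call was lost without CON 1, CON 2, CR8 3 or CR8 4 (adjusted p up to 0.0831) and in a fit to the 2 groups alone (adjusted p = 0.188). Ube2l6 gave 357, 405, 431 and 311 in CR8 livers, all below the lowest CON array of 445, and did not pass (log2 change -0.49 ± 0.13, adjusted p = 0.0851). Ube2d2a (log2 change -0.48 ± 0.20, adjusted p = 0.317), Rnf11 (log2 change -0.30 ± 0.11, adjusted p = 0.262) and Rnf13 (log2 change -0.24 ± 0.09, adjusted p = 0.262) did not pass either. Usp48 averaged 318 ± 15.8 in CR8 and 246 ± 35.2 in CON, above CON in all 4 arrays but short of the threshold (log2 change 0.35 ± 0.14, adjusted p = 0.316).

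Long-term restriction was then set against 8-week restriction. Of the members, 20 differed between LTCR and CR8, 7 higher and 13 lower in LTCR, which is 16.5% beside 12% of all probe sets (4.65% higher and 7.34% lower). Usp48 was lowest relative to CR8, with 161, 175, 127 and 148 in LTCR livers, against 312, 299, 327 and 334 in CR8 livers (log2 change -0.95 ± 0.14, adjusted p = 9.43e-05). Ube2e1 had 167, 198, 245 and 213 in LTCR livers, against 400.4, 362, 348 and 332 in CR8 livers (log2 change -0.74 ± 0.15, adjusted p = 0.00141). Rnf181 gave 1354, 1554, 1275 and 1434 in LTCR livers, against 1872, 1874, 2213 and 1981 in CR8 livers (log2 change -0.49 ± 0.09, adjusted p = 0.00106). None of these 3 overlapped between the groups. Ube2b was also lower (log2 change -0.41 ± 0.09, adjusted p = 0.00381). These 4 calls were kept with each array left out and in the other settings that tested them. Ube2e1 was absent from the setting with single-transcript probe sets, and Usp48 from that with a stricter filter on dim probe sets.

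Of the 24 conjugating enzyme probe sets, LTCR was lower than CR8 in 7 and higher in 1. The higher one was Ube2f, an E2 for the cullin modifier NEDD8, at a log2 change of 0.57 ± 0.18 (adjusted p = 0.0399). Ube2d2a (log2 change -0.79 ± 0.20, adjusted p = 0.00982), Ube2k (log2 change -0.67 ± 0.21, adjusted p = 0.0399) and Ube2l6 (log2 change -0.43 ± 0.13, adjusted p = 0.0343) were lower. Ube2d3 was lower by both probe sets, at -0.44 ± 0.13 and -0.43 ± 0.13. Usp33 (log2 change -0.51 ± 0.13, adjusted p = 0.00757), Usp1 (log2 change -0.47 ± 0.15, adjusted p = 0.0401), Rnf4 (log2 change -0.29 ± 0.07, adjusted p = 0.00577) and Trim21 (log2 change -0.56 ± 0.18, adjusted p = 0.0415) complete the falls. The other rises were Fbxw11 (log2 change 0.47 ± 0.13, adjusted p = 0.0149), Usp3 (log2 change 0.40 ± 0.13, adjusted p = 0.0349), Usp25 (log2 change 0.36 ± 0.11, adjusted p = 0.032), Usp15 (log2 change 0.33 ± 0.09, adjusted p = 0.0113), Trim27 (log2 change 0.30 ± 0.10, adjusted p = 0.0445) and Rnf13 (log2 change 0.29 ± 0.09, adjusted p = 0.0335). Rnf13 rose by 1 of its probe sets, and the other had its lowest group mean in LTCR, below that of CR8. The count was 12 without CR8 2, 11 without CR8 4, 12 without LTCR 1, 11 without LTCR 2 and 10 without LTCR 4. The shares of all probe sets called were then 7.77%, 8.63%, 8.05%, 9.05% and 8.37%, in that order. The count was 5 without the 5 arrays high in muscle markers, 2 of which are CR8 arrays, beside 5.75% of all probe sets. Summed muscle markers lay between 3693 and 5029 in LTCR livers, against 3470 and 16367 in CR8 livers. Their part in the differences was not tested.

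Metformin gave 7 member calls in MET, 2 higher and 5 lower, which is 5.8% beside 4.17% of all probe sets. Ube2e1 had 205, 175, 176 and 187 in MET livers, against 332, 294, 358 and 251 in CON livers, and fell without overlap (log2 change -0.65 ± 0.15, adjusted p = 0.0131). Usp14 gave 207, 218, 208 and 274 in MET livers, against 316, 351, 357 and 366 in CON livers (log2 change -0.57 ± 0.14, adjusted p = 0.0175). Ube2a gave 149.6, 90.2, 95.1 and 103 in MET livers, against 181, 158, 152 and 218 in CON livers (log2 change -0.59 ± 0.15, adjusted p = 0.0256). None of these 3 overlapped with CON. Usp38 averaged 68.1 ± 21.8 in MET and 125 ± 12.9 in CON (log2 change -0.70 ± 0.18, adjusted p = 0.0273), and the second Ube2d3 probe set averaged 808 ± 62 in MET and 1137 ± 126 in CON (log2 change -0.48 ± 0.13, adjusted p = 0.0336). The other tested Usp38 probe set was not called among the 8 groups (moderated F test, adjusted p = 0.558) and was lowest in GM. The first Ube2d3 probe set (log2 change -0.44 ± 0.13, adjusted p = 0.0587) and Ube2d2a (log2 change -0.64 ± 0.20, adjusted p = 0.0693) did not pass.

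Both rises in MET were in ligases. Rnf13, a membrane-bound RING ligase, had 2012, 1973, 2362 and 2195 in MET livers, against 1956, 1572, 1623 and 1546 in CON livers, by 1 of its probe sets (log2 change 0.35 ± 0.09, adjusted p = 0.0271), and its other gave a log2 change of 0.21 ± 0.19 (adjusted p = 0.606). The probe sets of Rnf13, Ube2e1, Usp38 and Ube2d3 called in MET were absent from the setting with single-transcript probe sets. Trim28 averaged 2768 ± 222 in MET and 2221 ± 155 in CON (log2 change 0.31 ± 0.08, adjusted p = 0.0285). Of the 7 calls, the 1 kept with each array left out was Ube2e1. That call was lost in a fit to the 2 groups alone and without the arrays high in muscle markers (adjusted p up to 0.0676). Usp14 was lost without CON 4 alone (adjusted p = 0.053). The number of calls was 3 without CON 1, 4 without CON 2, 2 without CON 4, and 4 without MET 3 or MET 4. The shares of all probe sets called were then 2.12%, 3.17%, 1.9%, 2.65% and 2.7%, in that order. Without the arrays high in muscle markers 2 members were called, both higher, beside 1.29% of all probe sets. Trim28 was among them, the Rnf13 call was lost, and the other member was not among the 7. A fit to the 2 groups alone called 0 members, beside 0.449% of all probe sets. Trim28 passed in LTCR, CR8 and MET, but all of these were set against the same CON arrays, so the 3 results are not independent.

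The other treatments gave few or no member calls. In GM, the F-box protein Fbxo3 was the 1 call, beside 1.55% of all probe sets, and 18 members (14.9%) had an unadjusted p under 0.05, beside 17.7% of all. Fbxo3 had 638, 740.1, 482 and 564 in GM livers, against 889, 732, 1051 and 835 in CON livers, with 1 GM array above the lowest CON array (log2 change -0.52 ± 0.13, adjusted p = 0.0455). The call was lost without CON 1, CON 3, CON 4, GM 1, GM 3 or GM 4 (adjusted p up to 0.115) and in 6 other settings (adjusted p up to 0.158), among them the fit without the arrays high in muscle markers. The other Fbxo3 probe set was not called in GM. It differed among the 8 groups (moderated F test, adjusted p = 0.00816), highest in MET and lowest in GLIP. Trim46 (log2 change -1.02 ± 0.28, adjusted p = 0.0579) and Usp7, a protease of the p53 pathway (log2 change 0.24 ± 0.08, adjusted p = 0.0945), came next and did not pass. In GLIP and in ROS, 0 members passed in limma, beside 0.136% of all probe sets in each. At an unadjusted p under 0.05 there were 8 members in GLIP (6.6%, beside 9.4% of all probe sets) and 5 in ROS (4.1%, beside 8.4%). In SOY, 0 members passed, beside 0% of all probe sets, and 8 (6.6%) had an unadjusted p under 0.05, beside 8.2%. The smallest p was that of Ube2k in GLIP (log2 change -0.59 ± 0.21, adjusted p = 0.345), of Rnf181 in ROS (log2 change -0.30 ± 0.09, adjusted p = 0.271) and of Ube2c, an E2 of the anaphase-promoting complex, in SOY (log2 change -0.96 ± 0.36, adjusted p = 0.467).

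Asked whether a member differed among the 8 groups at all, the moderated F test called 33 probe sets of 29 genes, 27.3% beside 27% of all probe sets, and 27 without the arrays high in muscle markers, beside 19.8%. LTCR had the lowest mean in 17 of the 33, MET in 6, GM in 5, GLIP and CON in 2 each and CR8 in 1. The highest mean was in CON for 9, CR8 for 6, LTCR for 5, SOY for 4, GLIP for 3, and MET, GM and ROS for 2 each. The same tally was not made over all probe sets, so it cannot be called particular to the members. Against CON, LTCR also had the largest share of all probe sets called, 19.3%. One Rnf13 probe set had the second smallest p (adjusted p = 0.000183). Its means were 1734 in LTCR, 1409 in CR8, 2135 in MET, 1467 in GLIP, 1410.0 in GM, 1489 in ROS, 1553 in SOY and 1674 in CON. All 4 MET arrays were above every array of every other group. The other Rnf13 probe set also passed the F test (adjusted p = 0.0226) with another order of the groups, highest in SOY (2347) and lowest in LTCR (1332), at 2130.0 in MET and 1873 in CON.

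**Figure D4:**
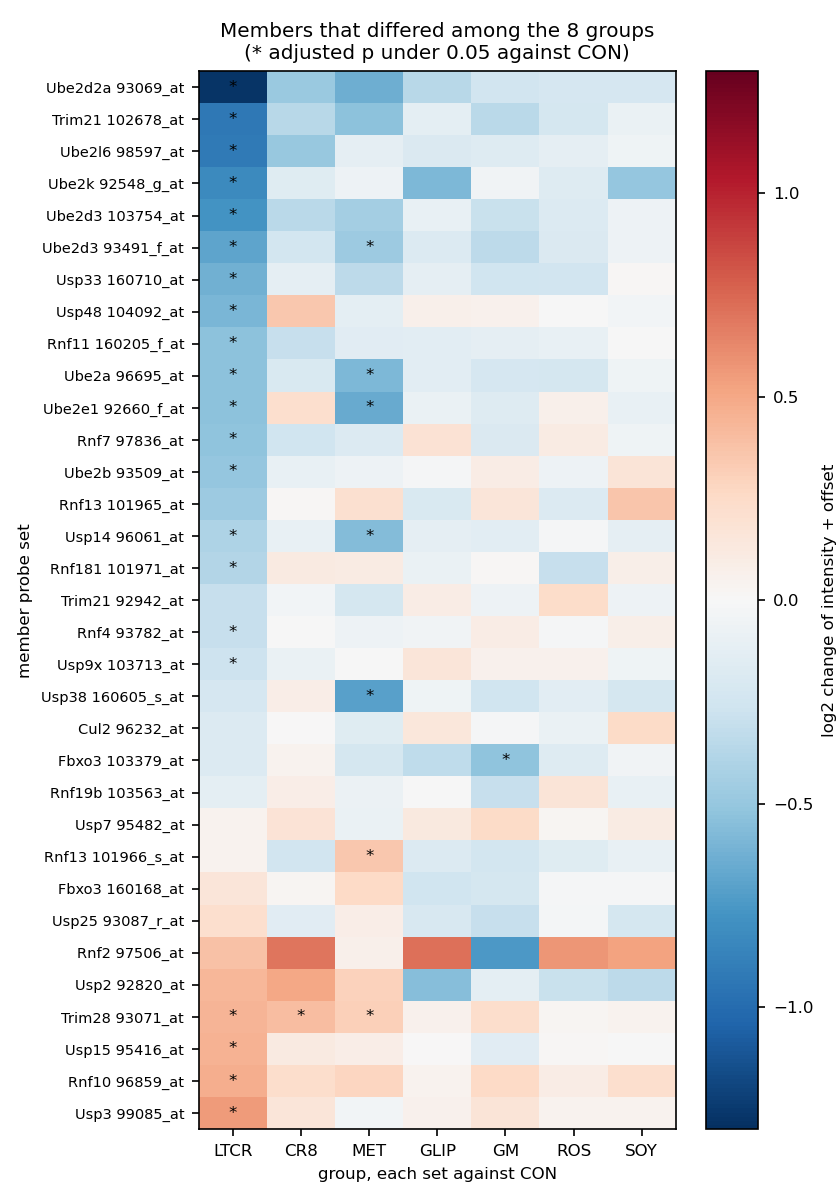
Log2 change against CON (colour) of the 33 member probe sets that differed among the 8 groups (rows, ordered by LTCR) in 7 groups (columns); an asterisk marks an adjusted p under 0.05 in that comparison. The LTCR column holds most of the asterisks, 3 of the 7 groups have an asterisk for Trim28, and none stands in the GLIP, ROS or SOY columns.

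Usp2 differed among the groups by 1 of its probe sets (F test, adjusted p = 0.00118) without passing in any comparison against CON. It is a deubiquitinase whose transcript follows the circadian clock. Its intensities were 1619.5, 1672, 1590.1 and 1419.9 in LTCR, 1853, 1641, 1601 and 1533 in CR8 and 1289, 1411, 1456 and 1589.8 in MET livers, against 993, 1052, 1232 and 1410.1 in CON livers. LTCR and CR8 arrays lay above all CON arrays, and MET overlapped CON. Means were 861 ± 433 in GLIP, 1066 ± 85.7 in GM, 953 ± 147 in ROS, 922 ± 172 in SOY and 1172 ± 189 in CON (SD, n = 4 each). In GLIP, 2 arrays had 1087 and 1358 and 2 had 537 and 461. The log2 changes were 0.43 ± 0.21 in LTCR (adjusted p = 0.147), 0.50 ± 0.21 in CR8 (adjusted p = 0.309), 0.30 ± 0.21 in MET (adjusted p = 0.472) and -0.56 ± 0.21 in GLIP (adjusted p = 0.349). The second Usp2 probe set did not pass the F test (adjusted p = 0.0748), with its highest mean in CR8 (798) and its lowest in GLIP (522), beside 681 in CON. Rnf2, the histone H2A ligase of Polycomb complex 1, had the widest range of group means among the 33, 1.46 log2 units. It was lowest in GM, at 24.9, 90.1, 42.1 and 186, against 238, 188, 179 and 33.8 in CON, where CON 4 was lowest.

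**Figure D5:**
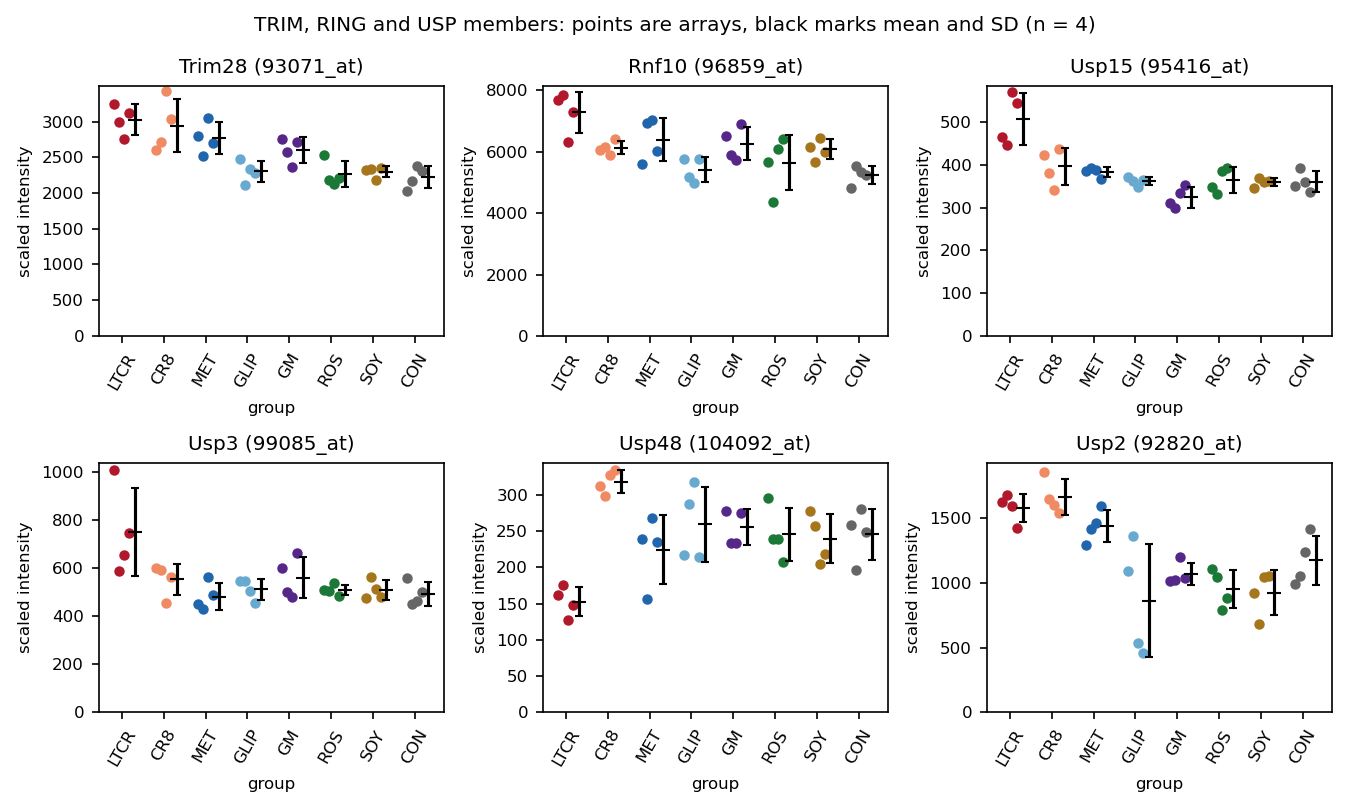
Scaled intensity (y axis) of 6 TRIM, RING and USP probe sets in the 8 groups (x axis); points are arrays, black marks mean and SD over 4 arrays. Trim28, Rnf10, Usp15 and Usp3 are above CON in all 4 LTCR arrays, Usp48 is low in LTCR and high in CR8, and Usp2 is split in GLIP.

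Genes of the ubiquitin system outside the naming rule were taken from a list of 129 symbols, older synonyms included, of which 74 were measured. In LTCR, 4 were higher and 13 lower (median log2 change -0.01), that is 17 of 74 beside the 19.3% of all probe sets. The smallest p after Isg15 were those of Klhl9, an adaptor of cullin 3 (620 ± 79.0 in LTCR and 855 ± 46.5 in CON; log2 change -0.46 ± 0.08, adjusted p = 0.000271), the RING ligase Pja1 (log2 change -0.37 ± 0.07, adjusted p = 0.00044) and Anapc11, the RING subunit of the anaphase-promoting complex (379 ± 25.2 in LTCR and 611 ± 107 in CON; log2 change -0.64 ± 0.13, adjusted p = 0.00058). Skp1, which joins F-box proteins to cullin 1, averaged 1146 ± 493 in LTCR and 2133 ± 372 in CON (log2 change -0.94 ± 0.23, adjusted p = 0.00333). Stub1, a ligase that works with heat shock chaperones, averaged 1003 ± 126 in LTCR and 718 ± 105 in CON (log2 change 0.47 ± 0.14, adjusted p = 0.0193). Skp1 and Stub1 were chosen after their values were seen. Of 8 measured heat shock genes, 5 were higher in LTCR and 0 lower, beside 7.53% and 11.8% of all probe sets. On the list of 129, 1 gene fell in CR8, Isg15 (log2 change -1.17 ± 0.20, adjusted p = 0.00272). In MET, Elob, the elongin B subunit of cullin 2 and 5 ligases, rose (0.40 ± 0.12, adjusted p = 0.0454) and 3 fell, Klhl9 (-0.46 ± 0.08, adjusted p = 0.00315), Pja1 (-0.25 ± 0.07, adjusted p = 0.049) and Isg15 (-0.70 ± 0.20, adjusted p = 0.0404). In GM, Cops6, of the signalosome that removes NEDD8 from cullins, rose (0.35 ± 0.09, adjusted p = 0.0424) and Klhl9 fell (-0.35 ± 0.08, adjusted p = 0.0297). Of all probe sets, 0.544% were called in CR8, 4.17% in MET and 1.55% in GM. None of the 74 passed in GLIP, ROS or SOY, where limma gave 4, 4 and 5 at an unadjusted p under 0.05. These stood beside 9.4%, 8.4% and 8.2% of all probe sets. Between LTCR and CR8, 5 of the 74 were higher in LTCR and 9 lower, beside 4.65% and 7.34% of all probe sets.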

How the data were processed

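The authors' deposited table holds 1 linear intensity per probe set and array, already scaled: leaving out 2% of values at each end, every column averaged 499.8. The software, background correction, detection calls and batches are not given in the sources used here. Values were taken as log2(intensity + 27), 27 being the 20th percentile, which understates changes of dim genes. Probe sets were tested where their mean log2 value exceeded that of an intensity of 94.2, the 40th percentile; 66 control probe sets were left out. limma 3.58.1 in R 4.3.3 was fitted over all 8 groups (24 residual and 4.59 prior degrees of freedom), with Benjamini-Hochberg adjustment over 7357 probe sets in each of 8 comparisons and a moderated F test, at 0.05; the procedure was tested on simulated data. With 4 arrays a group and no stated detection limit, the number of arrays limits precision. Genes were named through the platform annotation, and 6 probe sets with several symbols were left out.

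Members and lists were chosen with earlier results of these data known. Named members were up to 12 rises and 12 falls per comparison, the 3 smallest p where fewer than 3 passed, the 12 smallest F test p, the 5 brightest, some fixed genes and other probe sets of named genes. Alternatives covered scaling, the added constant, the filter, samples in the fit, replicate number as a block, probe sets, and arrays left out.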

Additional observations from a re-analysis of the deposited data

Results flagged for a closer look

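Among 155 sets of 4 arrays for named members, 7 had 1 array whose gap to its nearest neighbour, as a share of the group's range, was above Dixon's 95% critical value. Chance gives about 1 in 20 such groups. Ube2l6 was 640 in GM 1, with the other GM arrays between 419 and 440.2. Cul2 was 657 in LTCR 3, with the others between 509 and 523. Usp9x was 1175 in LTCR 4, with the others between 1044 and 1059, still below every CON array. Usp33 was 233 in CR8 3, with the others between 286 and 294. Usp2 was 1194 in GM 3, with the others between 1012 and 1039. Ube2n, an E2 that builds chains used in signalling, was 959 in ROS 1, with the others between 696 and 738. Usp14 was 274 in MET 4, with the others between 207 and 218.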

How the results depend on the processing

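In LTCR against CON the number of member calls lay between 20 and 26 in the settings tried, and between 21 and 29 with 1 array left out. The shares of all probe sets called were 10.5% to 26% in those settings and 14.5% to 20.7% with 1 array left out. Without a filter 163 members were tested, and with the stricter filter 89. Of the 26 calls in LTCR against CON, 17 were kept with each array left out, 18 in every other setting that tested them and 16 in both. Of these 18, 6 were absent from the setting with single-transcript probe sets or from that with the stricter filter, and 12 were tested in all. The F test called between 29 and 37 with 1 array left out, and within 1.5 times of 33 in every other setting. Of all probe sets it called 22.3% to 28.5% with 1 array left out, and 13.8% to 37.2% in the other settings. Fitting the 2 groups alone, which leaves fewer arrays to estimate the spread, gave 0 calls in CR8, 0 in MET, 0 in GM and 6 in LTCR against CR8. The shares of all probe sets called in that fit were 0.217%, 0.449%, 0.0544% and 6.63%. Without the arrays high in muscle markers there were 2 calls in MET, 0 in GM and 5 in LTCR against CR8. These stood beside 1.29%, 0.449% and 5.75% of all probe sets. With single-transcript probe sets, of which 104 were members, MET had 3, beside 4.09% of all such probe sets. GM had 0 with quantile normalization, 0 without a filter, 0 with the replicate block and 3, all higher, with equal array medians, which moved the median of all probe sets in GM to 0.09. In the first 3 of these settings, 1.26%, 0.459% and 1.09% of all probe sets were called in GM. With equal array medians, 5.87% of all probe sets were called in GM. Equal array medians also gave 4 higher and 3 lower calls in MET, against 2 and 5, and quantile normalization 8 higher and 18 lower in LTCR. These stood beside 3.48% and 19.4% of all probe sets, called in either direction. With 1 array left out, calls ranged from 0 to 2 in CR8, 2 to 7 in MET, 0 to 1 in GM and 10 to 24 in LTCR against CR8, and stayed at 0 in GLIP, ROS and SOY. The shares of all probe sets were then 0.15% to 0.924% in CR8, 1.9% to 3.18% in MET and 0.381% to 1.52% in GM. They were 7.77% to 12.9% in LTCR against CR8, and at most 0.163% in GLIP, ROS and SOY. The cause of these shifts was not tested. In the 8 comparisons, same-numbered arrays correlated between -0.174 and 0.172 in their deviations from group means. Batches are not stated, so these values cannot show whether such arrays were processed together. In LTCR against CON, 1 of 4 arrays was closest to its own number, with 2 in MET against CON and 0 in GM or SOY. The replicate block gave 24 calls in LTCR against CON and 16 in LTCR against CR8. These stood beside 18.7% and 11% of all probe sets.

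Log2 changes that changed sign were all short of the threshold. In LTCR against CON, leaving out 1 array gave -0.152 to 0.053 for the second Usp15 probe set (0.053 without LTCR 1 and 0.0 without LTCR 2), -0.005 to 0.268 for the second Rnf138 probe set (lowest without LTCR 4), -0.098 to 0.123 for Rnf141 (-0.098 without CON 3 and -0.049 without LTCR 1), -0.015 to 0.034 for Cul1 (-0.015 without CON 2 and -0.009 without LTCR 3) and -0.115 to 0.016 for Cul4a (highest without CON 3). Without the arrays high in muscle markers, Rnf141 was -0.098 and Cul4a 0.016. Usp2 in GM was 0.02 with equal array medians. No depth can be stated for arrays, and without detection calls the 42 dim probe sets have no stated limit.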
